A study of Mus musculus with 3 samples.

Results

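The cell cycle and DNA replication genes were the probe sets with a single gene symbol of the cyclins (A to L), the numbered cyclin-dependent kinases and Cdc proteins other than Cdc42, the Mcm proteins, the E2f factors, the DNA polymerases alpha, delta and epsilon, and a fixed set of proliferation genes such as Foxm1, Mki67 and Pcna. The rule found 94 probe sets of 68 genes, among 8251 genes with a probe set of their own. Liver RNA of male mice was hybridised to 3 Affymetrix arrays, 1 per diet. All mice were homozygous apoE knockouts on a C57BL/6J and OLA129 mixed background, which develop high plasma cholesterol, and no wild-type liver was included. The mice were 3 months old when assigned to a diet with 1.0% by weight of t10,c12-CLA, of c9,t11-CLA or, as control, of linoleic acid, and ate it for 12 weeks. The CLAs are conjugated isomers of linoleic acid that differ in the position and geometry of their double bonds. The design text assigned 9 mice to t10,c12-CLA, 10 to c9,t11-CLA and 10 to control, and describes semi-purified diets with 30% of energy as fat, whereas the sample labels name a western diet. The sources do not tell whether an array held RNA of 1 mouse or of several. With 1 array per diet no test between diets was possible, no p-value or SD between mice can be given, and the precision of all values is limited by the number of arrays.

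A cell that divides passes from growth through DNA synthesis to mitosis. Cyclins bind cyclin-dependent kinases and switch them on in turn, E2f factors turn on genes of DNA synthesis, and FOXM1 with the MuvB and MYBL2 proteins turns on genes of mitosis. Adult hepatocytes are mostly quiescent and re-enter the cycle after injury or partial hepatectomy, so that much of this gene group is known to be weakly expressed in an intact adult liver. Several names of the group are broader than division: CDK7, CDK8 and CDK9 act on RNA polymerase II, CDK5 is best known in neurons, CDC37 is a partner of the chaperone HSP90, CDC34 is a ubiquitin-conjugating enzyme, and CCNB1IP1 is a ubiquitin ligase of meiosis and no cyclin.

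Promoter sequences are shown for 7 genes whose signals differed most between diets or that carry the classical motifs of this group. The choice was made with their values known. The sequences are RefSeq promoters of build GRCm38.p6, from 250 bases before to 50 bases after the annotated gene start, written 5′ to 3′ on the gene's strand. Capitals mark matches on either strand to an E2F site (TTTCCCGC, TTTCGCGC, TTTGCCGC or TTTGGCGC), a cell cycle homology region or CHR (TTTGAA), the element read by MuvB complexes, and a CCAAT box (CCAAT), bound by NF-Y. The promoters lie at chr4:118437294-118437593 (minus strand) for Cdc20, chr9:70421505-70421804 (minus) for Ccnb2, chr7:135716330-135716629 (minus) for Mki67, chr9:109875329-109875628 (plus) for Cdc25a, chr1:20820263-20820562 (minus) for Mcm3, chr5:138171834-138172133 (minus) for Mcm7 and chr2:5012742-5013041 (minus) for Mcm10.
Cdc20: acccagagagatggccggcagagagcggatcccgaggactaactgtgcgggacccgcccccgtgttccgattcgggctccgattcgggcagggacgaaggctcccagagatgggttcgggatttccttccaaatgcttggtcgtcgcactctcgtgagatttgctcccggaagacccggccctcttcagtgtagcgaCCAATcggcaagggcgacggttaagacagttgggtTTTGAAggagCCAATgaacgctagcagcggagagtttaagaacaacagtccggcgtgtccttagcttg
Ccnb2: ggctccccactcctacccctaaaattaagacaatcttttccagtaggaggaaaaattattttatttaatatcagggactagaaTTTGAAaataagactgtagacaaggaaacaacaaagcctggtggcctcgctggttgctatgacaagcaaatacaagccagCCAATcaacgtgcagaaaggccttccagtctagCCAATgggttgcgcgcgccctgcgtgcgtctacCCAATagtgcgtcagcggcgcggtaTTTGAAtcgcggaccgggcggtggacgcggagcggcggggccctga
Mki67: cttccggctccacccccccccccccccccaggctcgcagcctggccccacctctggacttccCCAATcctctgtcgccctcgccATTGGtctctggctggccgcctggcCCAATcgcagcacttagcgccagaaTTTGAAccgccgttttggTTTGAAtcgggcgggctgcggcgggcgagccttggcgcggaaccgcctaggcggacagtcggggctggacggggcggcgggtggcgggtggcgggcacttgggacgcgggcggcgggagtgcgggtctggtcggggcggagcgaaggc
Cdc25a: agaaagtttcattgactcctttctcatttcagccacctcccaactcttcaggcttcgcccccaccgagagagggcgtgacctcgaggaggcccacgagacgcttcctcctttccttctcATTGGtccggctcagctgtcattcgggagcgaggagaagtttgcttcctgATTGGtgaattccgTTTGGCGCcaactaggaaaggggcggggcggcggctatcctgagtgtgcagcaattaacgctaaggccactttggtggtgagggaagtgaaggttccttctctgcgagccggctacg
Mcm3: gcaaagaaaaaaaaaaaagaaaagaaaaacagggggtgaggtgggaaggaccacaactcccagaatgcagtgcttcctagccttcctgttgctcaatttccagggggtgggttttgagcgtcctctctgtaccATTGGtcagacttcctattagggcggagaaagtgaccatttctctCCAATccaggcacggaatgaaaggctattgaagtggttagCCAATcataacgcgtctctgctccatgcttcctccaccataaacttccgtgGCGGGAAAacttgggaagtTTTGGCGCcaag
Mcm7: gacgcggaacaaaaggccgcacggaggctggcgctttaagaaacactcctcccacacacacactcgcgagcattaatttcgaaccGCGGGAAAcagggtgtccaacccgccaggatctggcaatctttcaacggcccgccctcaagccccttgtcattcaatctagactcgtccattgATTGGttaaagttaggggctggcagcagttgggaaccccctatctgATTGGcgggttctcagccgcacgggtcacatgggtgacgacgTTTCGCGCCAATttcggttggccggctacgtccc
Mcm10: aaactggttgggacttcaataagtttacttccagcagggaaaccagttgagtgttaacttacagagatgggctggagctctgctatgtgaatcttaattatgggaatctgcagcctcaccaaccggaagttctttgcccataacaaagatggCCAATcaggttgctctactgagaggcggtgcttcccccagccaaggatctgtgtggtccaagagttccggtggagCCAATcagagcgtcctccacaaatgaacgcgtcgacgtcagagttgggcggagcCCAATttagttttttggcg
Cdc20 and Ccnb2, genes of mitosis, held CHR and CCAAT letters and no E2F letters. In Cdc20 the CHR began 18 bases before the start, between CCAAT boxes that began 53 and 8 bases before it. In Ccnb2 a CHR began at base 5 after the start and another 167 bases before it, with CCAAT boxes at 87, 54 and 21 bases before it. Mcm3 and Mcm7, subunits of the replicative helicase, held 2 E2F matches each and no CHR, and in Mcm7 the E2F match that begins at base 17 overlaps a CCAAT box by its last letter. Mcm10 held CCAAT boxes and neither of the other motifs.

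Promoters were found for 57 of the 68 genes. E2F letters were present in 14 of them, 24.6%, against 3.79% of the 6576 promoters of genes on the array and 2.32% of all 27025 RefSeq promoters of the same length. CCAAT letters were present in 33, 57.9%, against 38.3% of array genes and 37.9% of all promoters, and CHR letters in 13, 22.8%, against 13% and 18.1%. CHR and CCAAT letters together were found in 12, 21.1%, against 7.12% of all promoters, among them Aurka, Plk1, Top2a and Cdk1 besides Cdc20, Ccnb2 and Mki67. None of the motifs was found in 18 promoters, among them Tk1, Ccne1, Ccnd3, Cdk4 and Cdk7. A match describes letters, not binding.

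**Figure D1:**
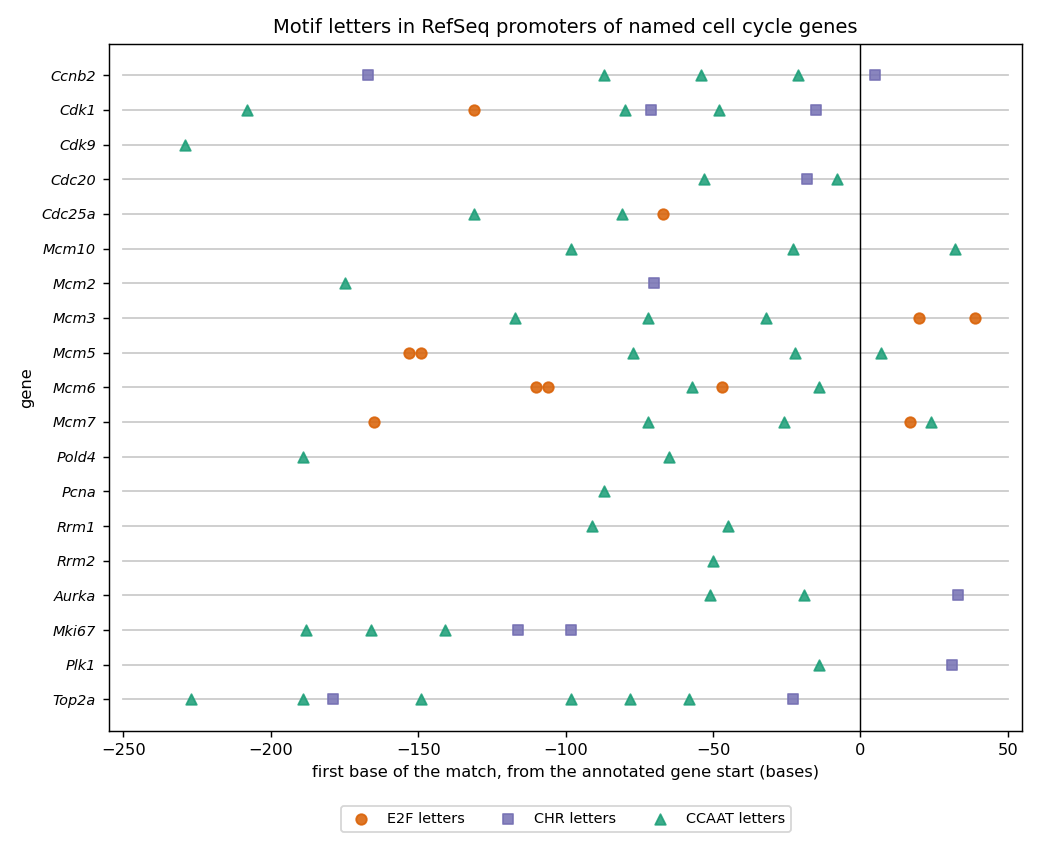
Positions of motif letters in the RefSeq promoters of 19 named cell cycle genes, with a row per gene and the distance in bases of each match's first base from the annotated gene start on the x axis. E2F letters are seen in Cdk1, Cdc25a, Mcm3, Mcm5, Mcm6 and Mcm7, and CHR letters in Ccnb2, Cdk1, Cdc20, Mcm2, Aurka, Mki67, Plk1 and Top2a.

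Values are MAS5 signals, probe set intensities on a linear scale, and each gene is read from its brightest probe set, by mean log2 signal. A signal was taken as measured above a floor of 490.3, the median of all signals of the 3 arrays. A gene above the floor on both arrays of a comparison has a log2 difference, and a gene above it on 1 array has a bound, the brighter signal over the floor. The 2%-trimmed mean was 1501 on each array, but the low end of the signal range differed: the 25th percentile of all probe sets was 140.9 for t10,c12-CLA, 168.8 for c9,t11-CLA and 124.4 for control. Apoe, the disrupted gene, gave 4288, 8695 and 6570 in the same order, and whether its probe set lies in the disrupted part is not stated. All 4 hepatocyte markers with a probe set were above the floor on each array, with summed signals of 103565, 210638 and 98886 in that order. They did not move together: on c9,t11-CLA Alb gave 101163, against 28437 on control, and Ttr 9385, against 17983.

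Of the 68 genes, 36 were above the floor with t10,c12-CLA, 43 with c9,t11-CLA and 34 with control, which is 52.9%, 63.2% and 50%. In bulk RNA, fewer dividing cells and less RNA per cell cannot be told apart. Of all 8251 genes the shares were 58.2%, 59.8% and 57%. On all 3 arrays 30 genes were measured, 44.1% against 50.3% of all genes, and on none 23 genes, 33.8% against 33.4%. By role, 8 of 12 genes with a cyclin symbol (Ccnb1ip1 included), 8 of 10 kinases and 12 of 14 Cdc genes were above the floor on at least 1 array. So were 4 of 7 Mcm genes, 7 of 9 polymerase genes and 1 of 4 E2f genes. Of the mitotic and proliferation genes 3 of 8, and of nucleotide supply with Pcna 2 of 4, were above the floor. The 23 genes below it throughout included the mitotic kinases Aurka and Aurkb, the checkpoint kinase Bub1, survivin Birc5, topoisomerase Top2a, the mitotic kinase Cdk1, both large and small subunits of ribonucleotide reductase, Rrm1 and Rrm2, the helicase subunits Mcm4, Mcm5 and Mcm6, the polymerase subunits Pola1 and Pole2, and E2f1, E2f3 and E2f8. The others were Ccna1, Ccnb1ip1, Ccnd2, Ccne2, Cdc7, Cdc73 and Cdk14. Their signals were all at or below 466.9. Aurka gave 88.9 on t10,c12-CLA and 332.6 on c9,t11-CLA, against 42.6 on control. Aurkb gave 111.9 and 350.2, against 87.2, Birc5 316.3 and 317.8, against 187.6, and Top2a 27.7 and 80.1, against 32.9. These markers of dividing cells were thus under the floor in every diet. Rrm1 gave 117.3 and 154.7, against 73.8, and Rrm2 297.2 and 331.8, against 225.0. Mcm4 gave 209.9 and 270.0, against 209.6, Mcm5 240.2 and 356.9, against 64.3, and Mcm6 121.8 and 182.9, against 128.0. Of the 23 genes, 2 were brightest with t10,c12-CLA, 16 with c9,t11-CLA and 5 with control, which is 8.7%, 69.6% and 21.7%. Of all genes below the floor on every array the shares were 27.4%, 51.3% and 21.3%. No diet difference is drawn from these 23 genes.

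**Figure D2:**
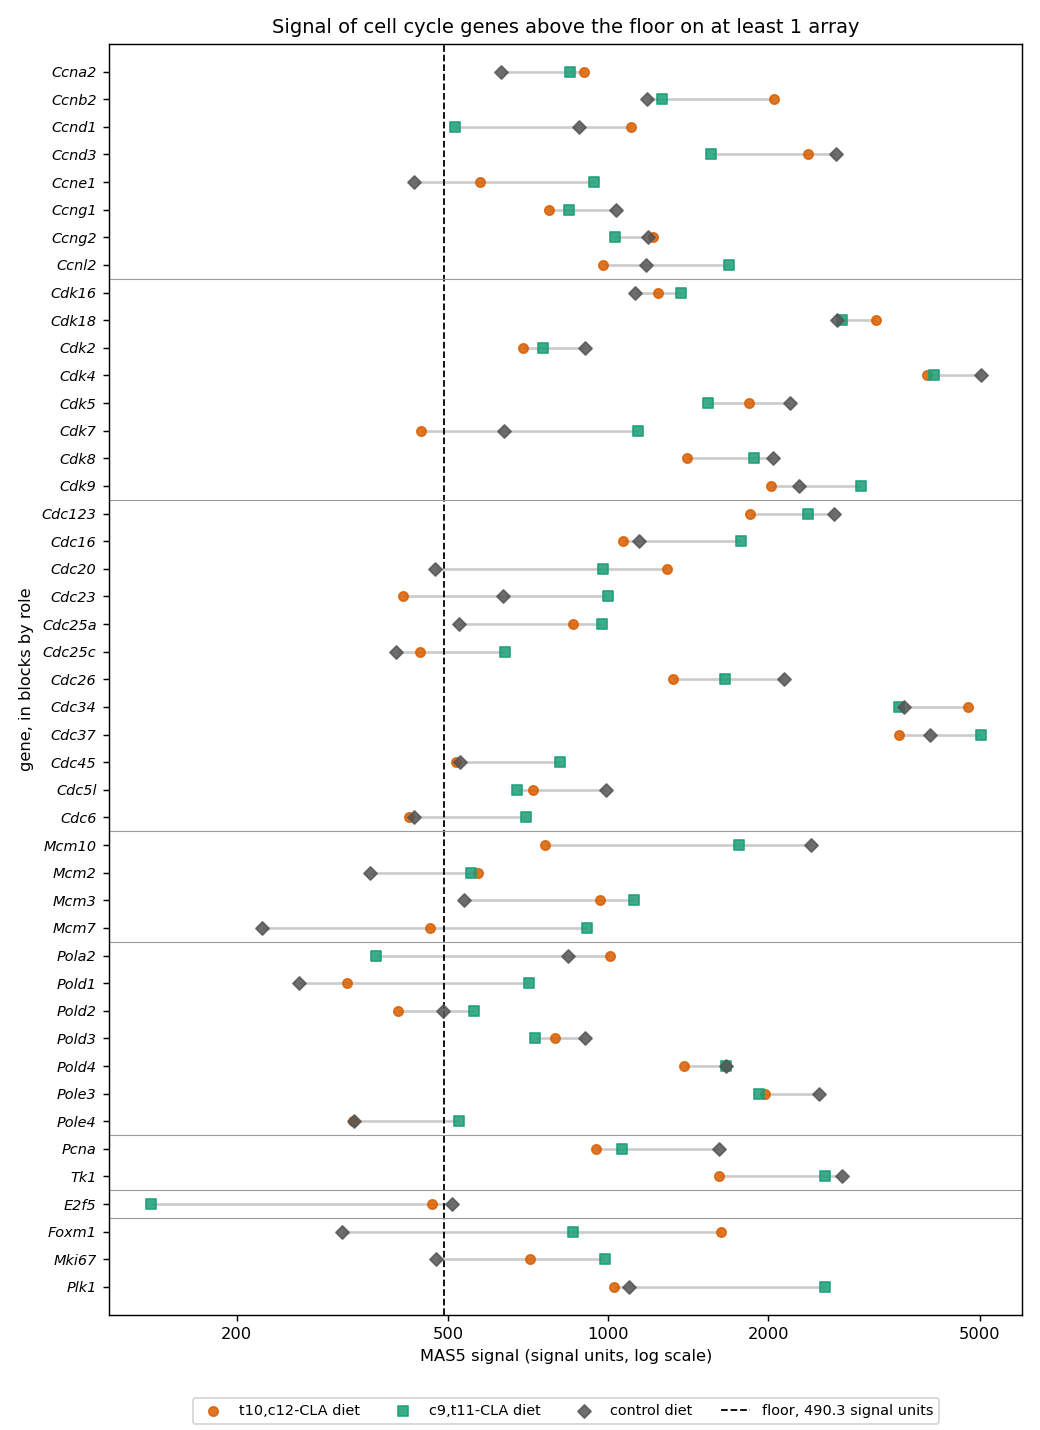
MAS5 signals on a log axis of the 45 cell cycle genes above the floor (dashed line, 490.3) on at least 1 array, in blocks by role, with a point for each of the t10,c12-CLA, c9,t11-CLA and control arrays. Cdc20, Foxm1, Mki67, Mcm2 and Ccne1 lie above the floor on both CLA arrays and below it on the control array, while Mcm10 is lowest on the t10,c12-CLA array, at 759.7.

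Above the floor on both CLA arrays and below it on the control array were 5 genes, Ccne1, Cdc20, Foxm1, Mcm2 and Mki67. They make 7.35% of the 68 genes, and 2.76% of all genes had the same pattern. After equal medians or quantile normalization the count was 3, and after equal medians 2.1% of all genes had the pattern. Because both CLA diets were set against the same control array, a low control value enters both comparisons. The control signals of Cdc20 and Mki67, 472.5 and 474.9, lay just under the floor. Only on the c9,t11-CLA array were Cdc6, Cdc25c, Mcm7, Pold1, Pold2 and Pole4 above the floor, 8.82% of the 68 genes against 4.64% of all genes. No cell cycle gene was above it only on the t10,c12-CLA array, against 2.18% of all genes. E2f5 was above it only on the control array, by 508.0 against 490.3.

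With t10,c12-CLA, the regulators of mitosis Foxm1 and Cdc20 were at least 3.33-fold and at least 2.64-fold higher than with control, and the replication factor Mcm10 was 3.17-fold lower. Among 31 genes measured on both arrays, none was 2-fold higher and Mcm10 alone was 2-fold lower, 10 were above 0 and 21 below. Of all 4391 genes measured in this comparison, 2.05% were higher by 2-fold or more and 1.87% lower by as much. The median log2 difference was -0.19 over the 31 genes and -0.01 over all measured genes. Bounds of at least 2-fold higher were reached by 2 of 8 genes above the floor on 1 array, against 4.59% of 719 such genes in all, and of at least 2-fold lower by none, against 2.64%. A yardstick for technical error, the disagreement between probe sets of the same gene, gave an SD of 0.40 for a log2 difference over 566 pairs. It does not hold the variation between mice. Passing it is common: the 17th and 83rd percentiles of all measured genes were -0.40 and 0.40 in this comparison. For c9,t11-CLA over control the 15th and 83rd percentiles were -0.48 and 0.49, near that comparison's yardstick of 0.49.

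Foxm1, the transcription factor of mitotic genes, gave a signal of 1634 with t10,c12-CLA and 858.5 with c9,t11-CLA, against 316.4 with control. Cdc20, the activator of the anaphase-promoting complex, gave 1294 and 977.7 on the CLA arrays in the same order, against 472.5 on control. In both genes t10,c12-CLA was highest and control lowest. The second probe set of Foxm1 was below the floor on every array, at 72 on t10,c12-CLA, 117 on c9,t11-CLA and 50 on control, and the identifier of the brighter one marks probes shared with another probe set. Mcm10, a replication initiation factor, gave 759.7 with t10,c12-CLA and 1765 with c9,t11-CLA, against 2411 with control, the reverse order. It had a single probe set.

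Cyclins, with Ccnb1ip1 counted by its symbol, had 7 of 12 genes measured on both the t10,c12-CLA and the control array. Of these 4 were above 0 and 3 below, with a median of 0.03. Ccnb2, a cyclin of mitosis, gave 2049 on t10,c12-CLA and 1263 on c9,t11-CLA, against 1184 on control. Ccna2, the cyclin of DNA synthesis and early mitosis, gave 899.8 and 848.8, against 627.5. Ccnb2 stood 0.79 above control on t10,c12-CLA and 0.09 on c9,t11-CLA, so that it was higher on t10,c12-CLA alone by more than the yardstick. Ccna2 stood at 0.52 and 0.44, the second inside the c9,t11-CLA yardstick of 0.49. Ccne1, the cyclin of entry into DNA synthesis, gave 573.6 and 940.1, against 432.1 below the floor. Its bounds were at least 1.17-fold and at least 1.92-fold higher. The cyclin G genes, whose products act in growth arrest and the p53 response, were measured on all arrays. Ccng1 stood at -0.42 on t10,c12-CLA, just past the yardstick of 0.40, and at -0.29 on c9,t11-CLA, and Ccng2 at 0.03 and -0.20. Ccnl2, a cyclin of RNA splicing, stood at -0.27 and 0.52.

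The cyclin-dependent kinases had 7 of 10 genes measured, with log2 differences on t10,c12-CLA between -0.53 (Cdk8, of the Mediator complex) and 0.24 (Cdk18). Cdk4 and Cdk2, the kinases of cyclins D and E, stood at -0.34 and -0.39 on t10,c12-CLA, and at -0.29 and -0.26 on c9,t11-CLA. Cdk4 gave 3982 and 4109 on the CLA arrays, against 5030 on control. Each of these differences was smaller than its yardstick. A second probe set of Cdk4 gave 391.2 and 934.2, against 466.7, at least 1.91-fold higher on c9,t11-CLA than on control and so opposite to the first. Cdk7, the kinase of the CDK-activating complex and of transcription factor TFIIH, gave 444.6 on t10,c12-CLA and 1137 on c9,t11-CLA, against 637.4 on control, with t10,c12-CLA below the floor. Cdk5 stood at -0.26 and -0.51, Cdk9 at -0.17 and 0.39, and Cdk16, whose role is best known in neurons and sperm, at 0.14 and 0.29. Cdk1 gave 391.2, 152.7 and 67.7, all below the floor, so that its order is not read.

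The Cdc proteins had 8 of 14 genes measured, 2 above 0 and 6 below, with a median of -0.15. Cdc25a, the phosphatase that activates CDK2, gave 859.6 on t10,c12-CLA and 973.6 on c9,t11-CLA, against 524.0 on control. It was 1.64-fold and 1.86-fold higher on the CLA diets, from a control signal just above the floor. The second probe set of Cdc25a was below the floor on all arrays, at 22.1 and 95.4, against 60.1. Cdc26, a subunit of the anaphase-promoting complex, stood at -0.69 on t10,c12-CLA and -0.37 on c9,t11-CLA, and the subunit Cdc16 at -0.11 and 0.64. Cdc45, a partner of the helicase, gave 517.7 and 813.0, against 526.6, and stood at -0.02 and 0.63. Cdc34 and Cdc37 stood at 0.40 and -0.20 on t10,c12-CLA and at -0.03 and 0.32 on c9,t11-CLA. Cdc5l, a splicing factor, stood at -0.46 and -0.56. Its second probe set gave 341.4 and 587.7, against 486.9, at least 1.20-fold higher on c9,t11-CLA than on control and so opposite to the first. Cdc123, an assembly factor of translation initiation, stood at -0.52 and -0.16. Cdc6, which loads the helicase at origins, gave 421.6 and 699.7, against 432.2, and the mitotic phosphatase Cdc25c gave 443.7 and 639.1, against 399.7. Both were above the floor with c9,t11-CLA only, with bounds of at least 1.43-fold and at least 1.30-fold higher than control. The identifier of the brighter Cdc25c probe set marks probes that match several transcripts. Its second probe set gave 50.1 and 95.9, against 206.7, all below the floor and highest on control.

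Among the replication genes, Mcm3 stood apart from Mcm10. Mcm3 gave 967.5 on t10,c12-CLA and 1121 on c9,t11-CLA, against 535.9 on control, 1.81-fold and 2.09-fold higher. Its second probe set gave 225.8 and 99.8, against 129.5, all below the floor and on c9,t11-CLA lower than on control. The identifier of the brighter Mcm3 probe set marks probes that match several transcripts. Mcm2 gave 569.1 and 551.9, against 356.8, bounds of at least 1.16-fold and at least 1.13-fold higher. Mcm7 gave 462.8 on t10,c12-CLA, below the floor, and 913.6 on c9,t11-CLA, against 223.5 on control, a bound of at least 1.86-fold on c9,t11-CLA. Of the Mcm genes, Mcm3 and Mcm10 alone were above the floor on every array, and against control they lay on opposite sides of 0.
Pcna, the sliding clamp of the polymerases, gave 948.0 and 1063, against 1620, and stood at -0.77 and -0.61, below control on both CLA diets by more than the yardsticks. Tk1, thymidine kinase, gave 1617 and 2557, against 2756, by its brighter probe set. The second probe set of Tk1 gave 1309 and 954, against 515, and so stood at 1.34 on t10,c12-CLA where the brighter one stood at -0.77. The direction of Tk1 is therefore not settled by these arrays.
DNA polymerase genes stayed close to control on t10,c12-CLA, with 4 of 9 measured and differences between -0.33 (Pole3) and 0.26 (Pola2). Pole3 encodes a histone-fold subunit of polymerase epsilon, and Pola2 the second subunit of polymerase alpha. Pola2 gave 1007 on t10,c12-CLA and 365.4 on c9,t11-CLA, against 842.0 on control, with c9,t11-CLA below the floor by both of its probe sets. Pold3 and Pold4, accessory subunits of polymerase delta, stood at -0.19 and -0.26 on t10,c12-CLA and at -0.31 and 0.00 on c9,t11-CLA. The catalytic subunit Pold1 gave 322.9 and 708.6, against 262.3, at least 1.45-fold higher on c9,t11-CLA than on control. The identifier of this probe set marks a relaxed choice of probes. The unmarked probe set of Pold1 gave 167.5 and 205.7, against 328.6, all below the floor and highest on control. Pold2 gave 402.4 and 559.4, against 489.2, and Pole4 331.0 and 525.0, against 332.4, so that both passed the floor narrowly and with c9,t11-CLA only.
Of the 4 E2f genes, E2f5 alone exceeded the floor, with 465.7 on t10,c12-CLA and 137.9 on c9,t11-CLA, against 508.0 on control.

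**Figure D3:**
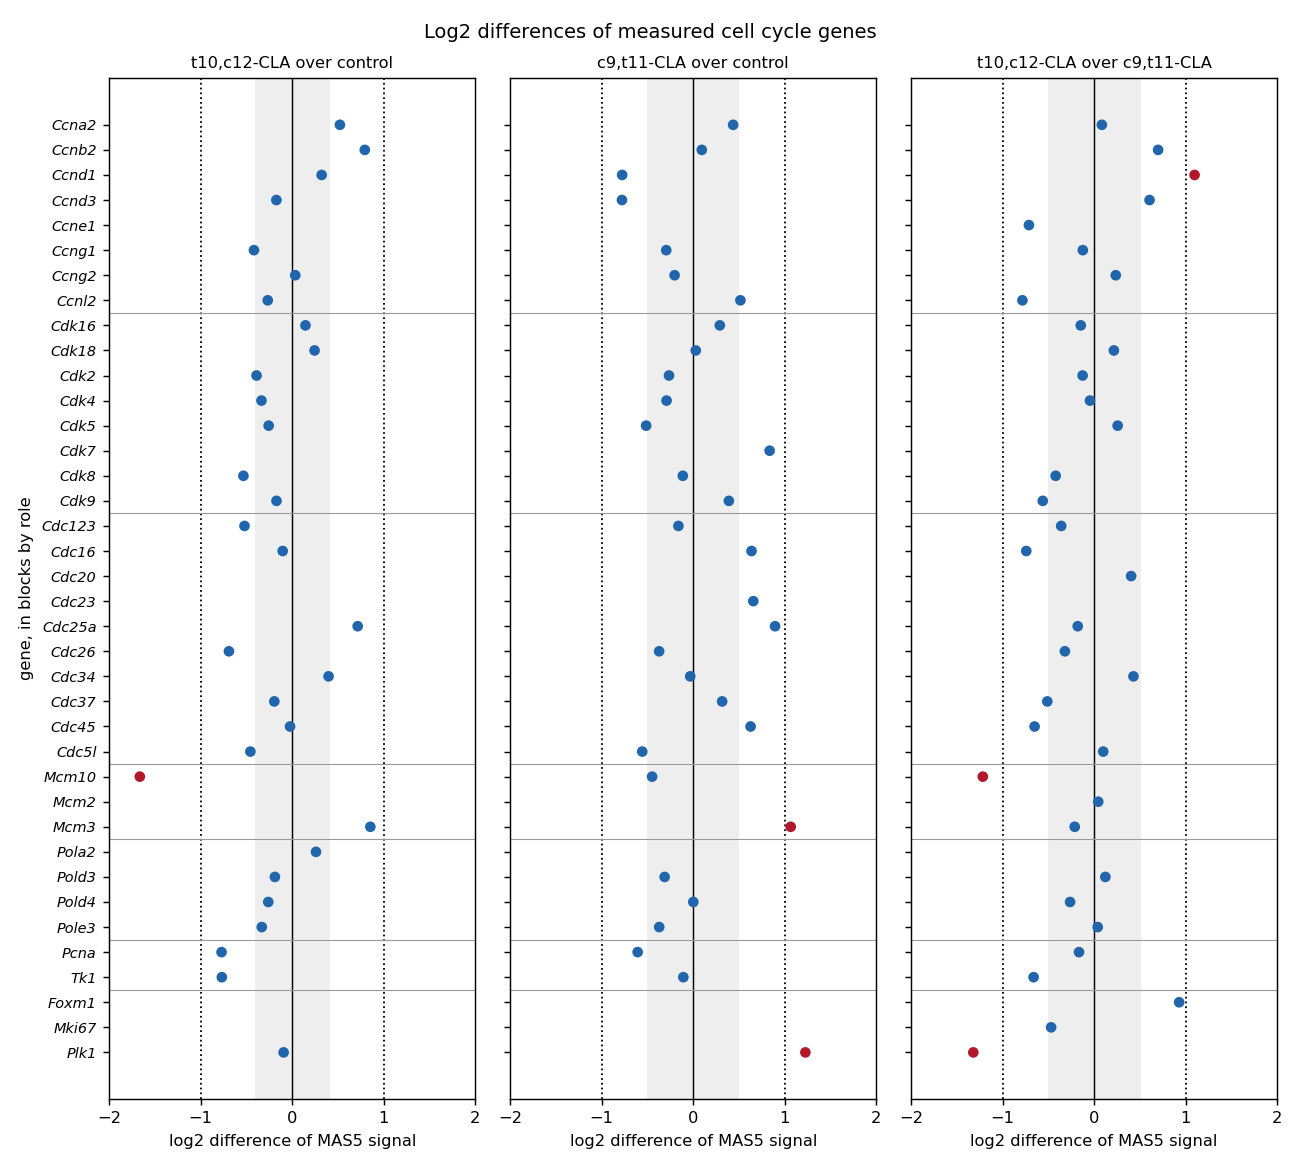
Log2 differences of MAS5 signal for the 38 genes above the floor on both arrays of at least 1 comparison, in blocks by role, for t10,c12-CLA over control, c9,t11-CLA over control and t10,c12-CLA over c9,t11-CLA. Grey bands are plus and minus 1 SD of the probe-set yardstick (0.40, 0.49 and 0.50), dotted lines mark 2-fold, and red points (Mcm10, Mcm3, Plk1 and Ccnd1) lie past it.

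On the c9,t11-CLA diet, Plk1 and Mcm3 were at least 2-fold higher than on control and no gene was 2-fold lower. These were 2 of 32 measured genes, 15 above 0 and 17 below, with a median of -0.07 against 0.02 over all 4324 measured genes. In this comparison 2.98% of all measured genes were higher by 2-fold or more and 2.78% lower by as much. By its bound, 1 of 13 genes above the floor on 1 array was at least 2-fold higher, Mki67 at 2.01-fold, against 6.47% of 989 such genes, and none was lower, against 4.04%. Cdc20 missed that size at 1.99-fold.

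Plk1, a kinase of mitotic entry and spindle assembly, gave 1027 on t10,c12-CLA and 2564 on c9,t11-CLA, against 1097 on control by its brightest probe set, whose identifier marks a gene family. A second one gave 677 and 576, against 796, so that on c9,t11-CLA it stood at -0.47 where the first stood at 1.23. The remaining one gave 277.6 and 74.6, against 266.4, all below the floor and on c9,t11-CLA lower than on control. Mki67, the proliferation marker Ki-67, gave 711.8 on t10,c12-CLA and 986.1 on c9,t11-CLA, against 474.9 on control. The identifier of this probe set marks a relaxed choice of probes. The unmarked probe set of Mki67 gave 106 and 36, against 89, all below the floor. The D cyclins Ccnd1 and Ccnd3, which couple growth signals to the cycle, both stood at -0.78 on c9,t11-CLA, past the yardstick of 0.49. Ccnd1 gave 1103 on t10,c12-CLA and 515.6 on c9,t11-CLA, against 883.1 on control, and Ccnd3 gave 2377 and 1563, against 2682. Another probe set of Ccnd1 stood at -0.05 on c9,t11-CLA. The subunits Cdc16 and Cdc23 of the anaphase-promoting complex stood at 0.64 and 0.66, and Cdk7 at 0.83. A second probe set of Cdc23 was below the floor throughout and in the opposite order. It gave 346.1 on t10,c12-CLA and 70.8 on c9,t11-CLA, against 239.8 on control.

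Between the isomers at the same dose and time, 35 genes were measured on both arrays. Ccnd1 was 2.14-fold higher on t10,c12-CLA than on c9,t11-CLA, and Plk1 and Mcm10 were 2.50-fold and 2.32-fold lower. Of all 4382 measured genes, 3.47% were higher by 2-fold or more and 2.56% lower by as much. The median was -0.15 over the 35 genes, 14 above 0 and 21 below, and -0.05 over all genes, and the yardstick was 0.50 over 553 pairs. Of 9 genes above the floor on 1 of these arrays, Pola2 had an upward bound of at least 2.05-fold, and Cdk7 and Cdc23 were at least 2.32-fold and at least 2.04-fold lower. Among all 970 such genes, 5.77% had a bound of 2-fold or more upwards and 5.77% downwards. The second probe set of Cdc23, below the floor on both arrays, was brighter on t10,c12-CLA, at 346.1 against 70.8. The identifier of the Pola2 probe set in use marks a relaxed choice of probes. The unmarked probe set of Pola2 gave 505.4 on t10,c12-CLA and 161.3 on c9,t11-CLA, a bound of only 1.03-fold.
Foxm1 stood at 0.93 and Ccnb2 at 0.70 between the isomers, higher on t10,c12-CLA, while Cdc16 stood at -0.74, Ccne1 at -0.71, Ccnl2 at -0.78 and Cdc45 at -0.65. The second probe set of Ccnd1 stood at -0.53, opposite to the first at 1.10, and that of Plk1 at 0.23, opposite to -1.32. Where several probe sets of a gene were measured, they pointed the same way in 1 of 4 genes for t10,c12-CLA over control, in 1 of 3 for c9,t11-CLA over control and in 0 of 3 between the isomers. The genes concerned were Ccnd1, Plk1, Tk1 and, on t10,c12-CLA over control, Pola2. No interval of a difference between the isomers can be given from 1 array each.

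**Figure D4:**
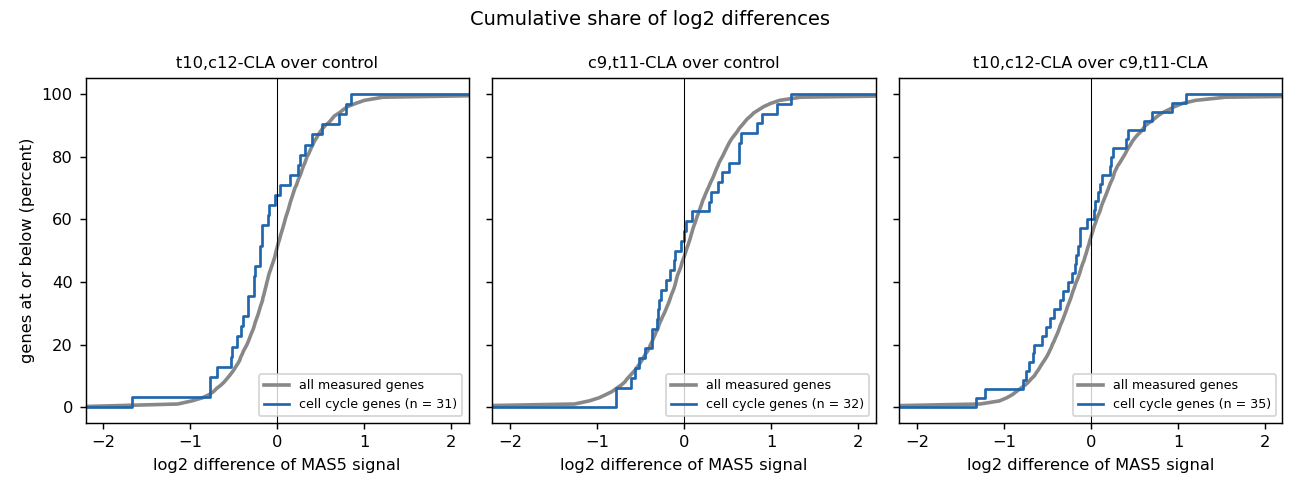
Cumulative share of genes (percent, y axis) against the log2 difference of MAS5 signal (x axis) for the measured cell cycle genes (31, 32 and 35, blue) and all measured genes (4391, 4324 and 4382, grey) in each comparison. The blue line lies left of the grey one around its middle for t10,c12-CLA over control, with medians of -0.19 and -0.01, and close to it for t10,c12-CLA over c9,t11-CLA, with medians of -0.15 and -0.05.

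Further genes of the cell cycle were read from 6 lists with 105 genes, of which 86 had a probe set. On t10,c12-CLA over control, 28 were measured, 2 at least 2-fold higher, where 2.05% of all measured genes were, and none lower, where 1.87% were. On c9,t11-CLA over control, 30 were measured, 4 at least 2-fold higher, against 2.98% of all, and none lower, against 2.78%. Between the isomers, 29 were measured, none higher by 2-fold on t10,c12-CLA, against 3.47% of all, and 2 lower, against 2.56%. The list of checkpoint and p53 response held 2 of the genes that were higher on both CLA diets. Gadd45g, a growth arrest gene, gave 5143 on t10,c12-CLA and 3618 on c9,t11-CLA, against 507.5 on control, just above the floor. Btg2, an antiproliferative gene induced by p53, gave 4319 and 4053, against 1793, 2.41-fold and 2.26-fold higher. The other genes past 2-fold were growth factor and cytokine receptors of the list of upstream signals: Egfr gave 2800 on t10,c12-CLA and 12221 on c9,t11-CLA, against 3368 on control, and Il6ra gave 1825 and 3864, against 1540. Both were higher on c9,t11-CLA and both were at least 2-fold lower on t10,c12-CLA than on c9,t11-CLA. The identifier of the Egfr probe set marks probes shared with another probe set.
The kinase inhibitor Cdkn1a, p21, gave 3064 and 3564, against 2775, and stood at 0.14 and 0.36, inside both yardsticks. Its list of CDK inhibitors and pocket proteins had 3 of 11 genes measured against control, none past 2-fold. The list of the replication fork and origin had 6 of 23 measured on t10,c12-CLA and 7 on c9,t11-CLA, and that of spindle, kinetochore and cytokinesis 4 and 5 of 20, none of them past 2-fold. In the list of cyclin turnover, Ube2c, the ubiquitin-conjugating enzyme of the anaphase-promoting complex, gave 112.4 on t10,c12-CLA and 1050 on c9,t11-CLA, against 326.2 on control, at least 2.14-fold higher on c9,t11-CLA than on control. The identifier of the Ube2c probe set marks a relaxed choice of probes. Myc was below the floor on all arrays.

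A liver piece also holds other cells that can divide. Macrophage and Kupffer cell markers were above the floor in 8 of 9 cases on each array, and their summed signal was 77988 on t10,c12-CLA, 48513 on c9,t11-CLA and 50850 on control. All 8 measured markers stood above control on t10,c12-CLA, with a median of 0.42, where 49.1% of all measured genes stood above 0. Cd68, C1qb, Adgre1 and Clec4f stood inside the yardstick of 0.40, at 0.10, 0.27, 0.27 and 0.38. Marco was below the floor throughout. T cell markers were above the floor in 0 of 5 cases on t10,c12-CLA, 1 on c9,t11-CLA and 1 on control, with sums of 768.1, 1778 and 1190, and B cell markers in 3, 2 and 4 of 4, with sums of 14910, 10886 and 11941. The B cell sums were mostly Cd74, with 12417 and 8206 on the CLA arrays, against 8820 on control, whereas Cd79a gave 703.9 and 406.5, against 1079, Cd79b 375.3 and 70.9, against 515.7, and Ms4a1 1413 and 2203, against 1526. The erythroid sums were 38303, 38527 and 37767, over 4 genes, with Epb42 below the floor throughout. They were mostly Hba-a1, with 35154 and 34939 on the CLA arrays, against 34085 on control. Klf1 gave 733.4 and 1859, against 1370, and was 2.54-fold lower on t10,c12-CLA than on c9,t11-CLA. Alas2 gave 2299 and 1608, against 2175. Stellate cell markers were above the floor in 3, 3 and 4 of 4 cases, with sums of 27144, 22200 and 28714 that were mostly Dcn. The collagen genes Col1a1 and Col3a1 were 1.74-fold and 1.84-fold higher on t10,c12-CLA than on control, and the median of the 3 stellate markers measured there was 0.80. Des was lower, at 351.9 on t10,c12-CLA, below the floor, and 698.9 on control. Endothelial sums were 3505, 4039 and 2391 over 4 genes. Pecam1 gave 894.2 and 1020, against 181.7, and Cdh5 1495 and 1762, against 1080. Kdr gave 683.7 and 690.8, against 716.1, and Tek 431.9 and 567.0, against 413.1. Neutrophil sums were 2100, 2969 and 2278 over 5 genes. S100a8, S100a9 and Elane were highest on c9,t11-CLA, whereas Mpo and Ngp, below the floor throughout, were highest on t10,c12-CLA. The 3 bile duct markers were below the floor on every array. The part of these cells in the signals of the cell cycle genes was not tested.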

How the data were processed

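The deposited table held MAS5 signal intensities of 12488 probe sets on a linear scale, per the submitters' processing notes, which give no software version. Per the labels' protocols, biotinylated cRNA was made from 8 µg of total RNA. Gene symbols are those of GEO's platform annotation, updated through Entrez identifiers in a RefSeq table of GRCm38.p6. Of the probe sets, 10833 had 1 symbol, 396 several, 1193 none, and 66 were array controls. Members were found by symbol, and 11 of the 68 genes were represented by a probe set whose identifier carries a mark of shared or relaxed probe choice. Signals were used without further scaling. The alternatives were equal medians, quantile normalization, a lower and a higher floor (25th and 75th percentile of all signals), 50 added before log2, the mean over measured probe sets, leaving out marked probe sets, and every probe set by itself. Counting was checked on simulated data. The members, lists and the floor were chosen with earlier results of these data known. Named were members at least 2-fold different in a comparison, also by a bound, a preset list of proliferation markers, and the measured gene with the largest difference of each role. Other members were named after their values were seen. Calculations used Python 3.11.15, numpy 2.4.6, pandas 2.3.3, scipy 1.17.1 and matplotlib 3.10.9.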

Additional observations from a re-analysis of the deposited data

How the results depend on the processing

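For t10,c12-CLA over control, the count of genes higher by 2-fold or more was 0, and 1 after equal medians, after quantile normalization and with every probe set by itself, and 3 with the lower floor. The gene gained by both scalings was Cdc20, which then had a control signal above the floor. The count of genes at least 2-fold lower was 1, Mcm10, and 0 with the higher floor. For c9,t11-CLA over control the count higher was 2, and 1 after equal medians, quantile normalization, the pseudocount of 50 and the mean over probe sets, 8 with the lower floor, and 0 with the higher floor or without marked probe sets. Mcm3 was lost under the scalings and the pseudocount, and Plk1 under the mean over probe sets kept only a log2 difference of 0.38. The count lower was 0, and 3 with the lower floor. Between the isomers the count higher was 1, and 4 with the lower floor and 0 with the higher floor or the mean over probe sets. After equal medians and after quantile normalization it was again 1, but the gene was Foxm1, at 1.03 and 1.02, in place of Ccnd1. The count lower was 2, and 5 with the lower floor, 0 with the higher, and 1 with the mean over probe sets or without marked probe sets. The lower floor admits signals near background, and at the higher floor only 10 to 14 genes were measured. With the lower floor 52, 50 and 52 genes were measured in the 3 comparisons. Of all genes so measured, 4.79%, 7.6% and 6.78% were at least 2-fold higher, and 3.41%, 5.85% and 6.28% lower. Under the other alternatives these shares of all genes lay between 1.6% and 4.78% higher and between 1.59% and 5.4% lower. Genes above the floor numbered 55 on t10,c12-CLA and 53 on control with the lower floor, and 12 on t10,c12-CLA, 17 on c9,t11-CLA and 15 on control with the higher floor. On c9,t11-CLA only Ccna1, Ccnd2, Ccne2, Cdc7, Cdc73, E2f5, Pola1, Pole2 and Top2a were at or below the lower floor. The count above the floor on both CLA arrays and not on control, an alternative chosen after seeing the data, was 3 after equal medians, quantile normalization and with the lower floor, and 0 with the higher floor. After equal medians 2.1% of all genes had this pattern. With the lower floor the genes were others, namely Cdk1, E2f3 and Mcm5. The control signals of Ccne1, Cdc20, Foxm1, Mcm2 and Mki67 all passed that floor. The median log2 difference ranged from -0.26 to -0.09 for t10,c12-CLA over control, from -0.18 to 0.30 for c9,t11-CLA over control and from -0.20 to -0.00 between the isomers, so the sign of the second is not settled. Equal medians shifted the median of all genes by -0.18 for c9,t11-CLA over control. Of 321 values of named genes under an alternative, 314 moved by less than the probe-set yardstick and 7 by more, all 7 for Tk1, Plk1 and Ccnd1 under the mean over probe sets. A change of floor cannot alter a log2 difference, so 53 values with the lower and 15 with the higher floor could not move. The mean can move only genes with several measured probe sets. Values no longer measured under an alternative were not counted, nor were bounds, such as those of Foxm1 and Cdc20 over control.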
